A study of Penicillium oxalicum with 6 samples.

Results

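The genes described here are 82 genes of the filamentous fungus Penicillium oxalicum whose messenger RNA was at least 8-fold lower in a strain lacking POX09752 than in its control and that lie outside the long blocks of neighbouring gene IDs that were lower together. POX09752 is named as a transcription factor in the study's design text, and the study asked how its loss affects the transcription of cellulase and xylanase genes. There were 3 libraries from the deletion strain, labelled MuPOX09752, and 3 from the control strain, labelled Ku70. In both groups the mycelium had been 24 h in liquid medium with 2% Avicel, a microcrystalline cellulose, and the only difference between the groups that the labels give is the strain. The growth text, the same for all libraries, names only spores of MuKu70; the labels do not state whether the deletion strain also lacks Ku70, and they do not say whether the libraries of a strain came from separate cultures or clones, so the spread between libraries may be technical.

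The members were chosen by their measured levels in these same 6 libraries. The unit is FPKM, the number of fragments scaled to gene length and library total. Of 9834 gene IDs, 7473 had a mean of at least 5 FPKM in the control, and 119 of these had a deletion mean at least 8-fold below it. From the 119, 34 were left out because they lay in runs of 5 or more consecutive ID numbers that all averaged 1 FPKM or more and were at most 0.5 times the control, and 3 more were left out by name, among them the deleted gene. The remaining 82 genes are 1.10% of the IDs with a control mean of at least 5 FPKM. Because the rule used the levels in both strains, the size and the direction of the difference between the strains are a description of the members and not a finding, and no test of it is read as support for them.

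A fungal transcription factor acts by binding DNA and raising or lowering the transcription of its target genes, and the loss of an activator can leave both direct targets and genes further along the chain at lower transcript levels. Fungi that live on plant matter adjust large sets of genes to the carbon source in this way, among them genes for secreted enzymes, for uptake of the released sugars and for metabolism. Genes of one pathway often sit next to each other in fungal genomes and are then transcribed together. Ku70 takes part in joining broken DNA ends without a matching template, and fungi that lack it are often used as hosts for replacing genes. No table used here pairs the gene IDs with products, protein families or chromosomal positions, so the members are named by ID, with no role. Promoter and protein sequences of the members were not analysed here.

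The deleted gene POX09752 had 0, 0 and 0 counts in the deletion libraries, against 1568, 1375 and 1663 counts in the control libraries, so in all 6 libraries this transcript went with the strain label. The library totals ran from 13099454 to 14115694 expected counts. All 82 members passed the filter used for testing, an average of 1 FPKM or more, which they had to pass through their control level. Of all 8807 genes tested, 60.1% were called changed and 30.2% were called lower without POX09752, at a Benjamini-Hochberg adjusted p under 0.05 from the quasi-likelihood test of edgeR. Every one of the 82 members was among the genes called lower, and since the rule chose them on the same contrast, nothing is read from that count.

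Over the members, the control level spanned more than 3 orders of magnitude and the deletion level was spread as widely. The deletion mean ran from 0.270 to 1228 FPKM with a median of 4.50, and the control mean ran from 5.44 to 10270 FPKM with a median of 83.0. The level left in the deletion strain was 0.154% to 12.5% of the control, with a median of 6.84%, which is 14.6-fold lower. There were 37 members at least 16-fold lower, 15 at least 32-fold lower, 7 at least 64-fold lower and 2 at least 128-fold lower. The median fitted log2 fold change of the members was -3.89, beside 0.01 over all tested genes.

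**Figure D1:**
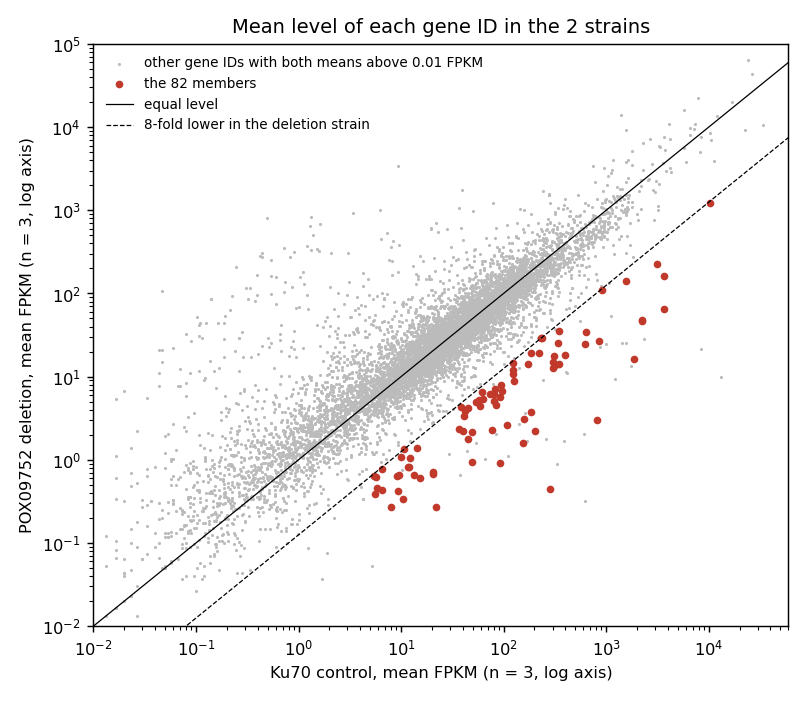
Mean FPKM of each gene ID in the deletion strain (vertical, log axis) against the mean in the Ku70 control (horizontal, log axis), n = 3 libraries each. The 82 members (red) lie on or below the dashed line of an 8-fold lower level, with control means from 5.44 to 10270 FPKM; the grey points below that line are genes left out by the rule.

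As a group the members were a visible part of the control transcriptome and a small part of the deletion transcriptome. They took 0.256%, 0.255% and 0.218% of all counts in the deletion libraries (replicates 1, 2 and 3, an order kept throughout), against 3.60%, 3.87% and 3.75% in the control libraries. A single gene, POX08030, supplied 42.7%, 43.5% and 35.0% of the members' counts in the deletion libraries, against 22.3%, 21.6% and 22.4% in the control libraries. Without POX08030 the shares were 0.147%, 0.144% and 0.142% in the deletion libraries, against 2.80%, 3.03% and 2.91% in the control libraries. In bulk RNA a lower transcript level per cell and a smaller share of hyphae that transcribe the gene cannot be told apart. By rank, 1 member was among the 5% of all IDs with the highest level in the deletion strain, against 17 in the control, and 15 members lay above the median level of all IDs in the deletion strain, against 60 in the control.

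The member with the highest control level was POX08030, which ranked 93rd of all IDs in the deletion strain and 11th in the control. It had 1357, 1379 and 948 FPKM in the deletion libraries, against 9994, 10371 and 10445 FPKM in the control libraries. The groups did not overlap, and deletion replicate 3 was the lowest library. The difference was 8.36-fold, close to the limit of the rule, and the transcript stayed among the abundant ones of the deletion strain.

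POX02834 and POX06312 had similar control levels but kept different shares of them. POX02834 had 65.9, 64.6 and 63.1 FPKM in the deletion libraries, against 3453, 4075 and 3556 FPKM in the control libraries. POX06312 had 172, 176 and 134 FPKM in the deletion libraries, against 3264, 3968 and 3699 FPKM in the control libraries. POX02834 was thus 57.3-fold lower and POX06312 22.7-fold lower. In POX02834 the coefficient of variation was 2.19% over the deletion libraries, among the smallest of the members, and 9.02% over the control libraries. In POX06312 it was 14.6% over the deletion libraries and 9.75% over the control libraries.

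POX08831, POX00122 and POX08890 followed in order of control level. POX08831 had 222, 195 and 267 FPKM in the deletion libraries, against 3240, 3154 and 3006 FPKM in the control libraries, which is 13.7-fold lower. POX00122 had 26.6, 36.7 and 79.1 FPKM in the deletion libraries, against 2455, 2254 and 2051 FPKM in the control libraries, which is 47.5-fold lower. In POX00122 deletion replicate 3 was about 2.50 times the mean of the other deletion libraries, and all 3 remained far below the control. POX08890 had 47.9, 50.9 and 40.2 FPKM in the deletion libraries, against 2234, 2339 and 2080 FPKM in the control libraries, which is 47.9-fold lower.

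The remaining members of the 10 with the highest control level again differed in how much was left. POX09365 had 15.8, 18.8 and 14.7 FPKM in the deletion libraries, against 1632, 1948 and 2019 FPKM in the control libraries. POX07155 had 134, 122.5 and 169 FPKM in the deletion libraries, against 1549, 1555 and 1594 FPKM in the control libraries. With similar control levels, POX09365 was 113-fold lower and POX07155 11.05-fold lower in the deletion strain. POX06146 had 128, 117 and 80.8 FPKM in the deletion libraries, against 896, 947 and 901 FPKM in the control libraries. POX08183 had 24.0, 33.3 and 24.2 FPKM in the deletion libraries, against 874, 893 and 815 FPKM in the control libraries. POX06146 was 8.41-fold lower and POX08183 31.7-fold lower. Across the 82 members the log2 control level and the log2 size of the difference had a Pearson correlation of 0.263, given as a description, since the members share all 6 libraries and the control level enters both measures.

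**Figure D2:**
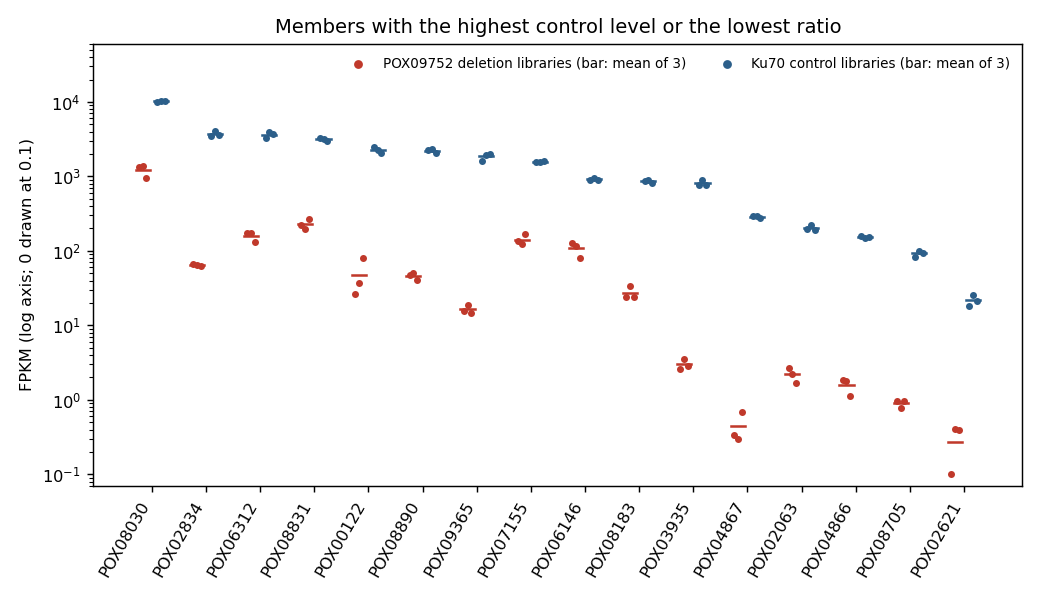
FPKM (log axis) of each deletion library (red, left) and each Ku70 control library (blue, right) for the 10 members with the highest control mean and the 8 with the lowest ratio, of which 2 are in both sets; bars are means of 3 libraries, and a value of 0 is drawn at 0.1. In every gene shown the red points lie below the blue ones, and the distance between them differs from gene to gene, from 8.36-fold in POX08030 to 650-fold in POX04867.

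The lowest ratio of all members was that of POX04867, a transcript almost absent from the deletion strain. It had 0.34, 0.30 and 0.68 FPKM in the deletion libraries, against 294, 291 and 273 FPKM in the control libraries. These levels rest on 27 counts over the deletion libraries and 18006 counts over the control libraries. Scaled to library size, the ratio of these counts was 658. Its 95% exact binomial interval was 452 to 999. Like the others below, it pools the counts of each strain, so it covers only counting error and not the spread between libraries. No molecular identifiers are mentioned.

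POX03935 came next, with 2.60, 3.54 and 2.86 FPKM in the deletion libraries, against 759, 909 and 773 FPKM in the control libraries. Its scaled count ratio was 278 (95% exact binomial interval 195 to 409), from 31 counts over the deletion libraries. POX09365, described above, had a scaled count ratio of 116 (109 to 123.4), a narrow interval that rests on 1080 counts over the deletion libraries. That interval leaves out the spread between libraries, and this gene was uneven in both strains by the chi-square test given below. POX04867 and POX03935 were the only members at least 128-fold lower, and POX09365 followed.

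POX08705, POX04866 and POX02063 were each close to 100-fold lower. POX08705 had 0.98, 0.77 and 0.96 FPKM in the deletion libraries, against 82.6, 101 and 94.9 FPKM in the control libraries, a scaled count ratio of 105 (95% exact binomial interval 70.8 to 162). POX04866 had 1.87, 1.80 and 1.12 FPKM in the deletion libraries, against 159, 149 and 155 FPKM in the control libraries, a scaled count ratio of 99.1 (85.8 to 115). POX02063 had 2.69, 2.24 and 1.69 FPKM in the deletion libraries, against 194, 225 and 191 FPKM in the control libraries, a scaled count ratio of 94.1 (64.5 to 143). The intervals of these 3 genes overlap, so their order is not resolved by counting alone.

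POX02621 shows how depth limits the order among the weaker transcripts. It had 0, 0.41 and 0.40 FPKM in the deletion libraries, against 18.4, 25.4 and 21.4 FPKM in the control libraries. With 6 counts left over the deletion libraries, its scaled count ratio of 82.5 had a 95% exact binomial interval from 37.7 to 226. There were 15 members with under 30 counts over the deletion libraries, so that counting alone limits how well the size of their difference is known. The eighth lowest ratio was that of POX02834, given above.

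The members fell into classes by the level left in the deletion strain. In 21 members the deletion mean was under 1 FPKM, with control means of 5.44 to 286 FPKM. In 22 it was 1 to 5 FPKM, with control means of 9.90 to 814 FPKM, and in 24 it was 5 to 20 FPKM, with control means of 57.5 to 1867 FPKM. In 10 it was 20 to 100 FPKM and in 5 it was 100 FPKM or more. Members with almost no transcript left and members that stayed at a moderate level were thus both present. Most members of the class under 1 FPKM had a low control level. Its highest control means were 286 FPKM in POX04867, 92.9 FPKM in POX08705 and 48.8 FPKM in POX07751, and the next was 21.7 FPKM in POX02621.

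Although the rule left out runs of 5 or more IDs, the members were not all scattered singly over the ID numbers. There were 27 members, 32.9% of the 82, whose ID number was within 2 of another member's, in 10 groups: 1 group of 4, 5 groups of 3 and 4 groups of 2. The other 55 members had no member that close. In each of the 10 groups the members had directly consecutive numbers. ID numbers were used only as an order, since the positions of these genes in the genome were not analysed here, and the strandedness of counting is not given in the sources used here, so reads from genes that overlap each other could not be told apart.

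The group of 4, POX04866 to POX04869, had sharp borders. POX04866 and POX04867 are given above. POX04868 had 4.29, 3.87 and 5.42 FPKM in the deletion libraries, against 84.9, 88.6 and 79.7 FPKM in the control libraries. POX04869 had 4.16, 6.00 and 5.04 FPKM in the deletion libraries, against 76.5, 81.7 and 82.7 FPKM in the control libraries. Within this group the difference ran from 15.8-fold in POX04869 to 650-fold in POX04867. The ID before it, POX04865, had 51.6 ± 3.47 FPKM without POX09752 and 65.5 ± 3.61 FPKM in Ku70 (SD, 3 libraries per strain), and the ID after it, POX04870, had 32.7 ± 3.44 FPKM without POX09752 and 22.6 ± 2.05 FPKM in Ku70 (SD, 3 libraries per strain). With 1 more such ID the group would have been left out as a run.

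The group POX00121 to POX00123 held genes of very different level. POX00121 had 10.7, 11.4 and 15.6 FPKM in the deletion libraries, against 291, 308 and 305 FPKM in the control libraries. POX00122 is given above, and POX00123 had 1.59, 2.26 and 5.46 FPKM in the deletion libraries, against 166, 164 and 150 FPKM in the control libraries. All 3 genes were highest in deletion replicate 3, at 1.41, 2.50 and 2.84 times the mean of the other deletion libraries. Over the 82 members, replicate 3 was the highest deletion library in 30, replicate 2 in 30 and replicate 1 in 22. An excess of replicate 3 by at least 1.5 times was less common, in 12 members (14.6%), beside 6.68% of all tested genes. Replicate 3 was also the highest for the flanking POX00120, with 40.9, 62.7 and 77.7 FPKM in the deletion libraries. The ID after the group, POX00124, was 4.29-fold lower, at 31.6 ± 1.10 FPKM without POX09752 and 136 ± 9.04 FPKM in Ku70 (SD, 3 libraries per strain), and the ID before it, POX00120, had 60.4 ± 18.5 FPKM without POX09752 and 50.8 ± 3.79 FPKM in Ku70 (SD, 3 libraries per strain).

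POX03933 to POX03935 joined a moderate, a weak and a strong control gene. POX03933 had 6.64, 6.35 and 5.43 FPKM in the deletion libraries, against 72.0, 88.5 and 79.3 FPKM in the control libraries. POX03934 had 0.45, 0.73 and 0.80 FPKM in the deletion libraries, against 12.3, 15.8 and 12.3 FPKM in the control libraries. They were 13.02-fold and 20.4-fold lower, beside 271-fold for POX03935, whose library values are above. Both flanking IDs had higher means in the deletion strain: POX03932 had 102 ± 17.2 FPKM without POX09752 and 61.7 ± 1.77 FPKM in Ku70, and POX03936 had 53.2 ± 11.1 FPKM without POX09752 and 36.1 ± 0.79 FPKM in Ku70 (SD, 3 libraries per strain).

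POX02621 to POX02623 was a second group with one strong and 2 weaker genes. POX02622 had 1.09, 0.44 and 0.43 FPKM in the deletion libraries, against 10.1, 8.87 and 9.64 FPKM in the control libraries. POX02623 had 2.57, 5.31 and 3.36 FPKM in the deletion libraries, against 181, 189 and 184 FPKM in the control libraries. POX02622 was 14.6-fold lower and POX02623 49.3-fold lower, beside the 80.4-fold difference of POX02621. The flanking IDs stayed near or above the control level: POX02620 had 56.9 ± 4.58 FPKM without POX09752 and 53.5 ± 3.04 FPKM in Ku70, and POX02624 had 10.2 ± 3.73 FPKM without POX09752 and 5.84 ± 1.47 FPKM in Ku70 (SD, 3 libraries per strain).

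A pair of groups lay within 5 IDs of one of the 6 runs that were left out. POX01171 had 0.28, 1.92 and 0.93 FPKM in the deletion libraries, against 13, 11.9 and 12.2 FPKM in the control libraries. POX01172 had 0.20, 0.41 and 0.40 FPKM in the deletion libraries, against 12.3, 9.48 and 9.57 FPKM in the control libraries. POX01173 had 0.43, 0.89 and 0.48 FPKM in the deletion libraries, against 16.3, 15.7 and 14.4 FPKM in the control libraries. These 3 weakly expressed genes were 11.8-fold, 31.1-fold and 25.8-fold lower, and 2 IDs that kept over 0.5 of their level, POX01174 and POX01175, separated them from a run that begins at POX01176.

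The other group of this kind, POX09363 to POX09365, was divided from a run that ends at POX09361 by a single ID. POX09363 had 0.65, 0.74 and 0.50 FPKM in the deletion libraries, against 6.07, 5.42 and 4.83 FPKM in the control libraries. POX09364 had 0.44, 0.41 and 0.52 FPKM in the deletion libraries, against 5.52, 5.14 and 7 FPKM in the control libraries. The ID in between, POX09362, was at 47.2 ± 2.67 FPKM without POX09752 and 49.8 ± 4.71 FPKM in Ku70 (SD, 3 libraries per strain). In this group the difference ran from 8.63-fold in POX09363, whose control level was the lowest of all members, to 113-fold in POX09365, one of the most abundant.

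Of the 4 pairs, 3 joined a weakly and a strongly expressed control gene, and the pair POX07621 and POX07622 joined genes of moderate level. In the pair POX02833 and POX02834, POX02833 had 0.54, 0.44 and 0.32 FPKM in the deletion libraries, against 7.64, 6.70 and 5.13 FPKM in the control libraries, beside the much stronger POX02834. The ID before the pair, POX02832, had 308 ± 34.9 FPKM without POX09752 and 96.8 ± 4.80 FPKM in Ku70 (SD, 3 libraries per strain), so neighbouring IDs here differed in opposite directions. In the pair POX03874 and POX03875, POX03874 had 25.5, 28.1 and 20.7 FPKM in the deletion libraries, against 556, 639 and 684 FPKM in the control libraries. POX03875 had 0.79, 0.69 and 1.00 FPKM in the deletion libraries, against 12.1, 11.4 and 11.8 FPKM in the control libraries. Their differences were 25.3-fold and 14.2-fold. The ID before this pair, POX03873, was also lower, by 3.07-fold, and the ID after it, POX03876, was almost undetected in both strains.

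In the pair POX07621 and POX07622 both genes were lowest in deletion replicate 3. POX07621 had 7.97, 7.37 and 4.49 FPKM in the deletion libraries, against 58.8, 63.8 and 63.7 FPKM in the control libraries. POX07622 had 16.3, 19.0 and 8.64 FPKM in the deletion libraries, against 125.6, 123.8 and 124.8 FPKM in the control libraries. In the pair POX09319 and POX09320, POX09319 had 0.85, 0.49 and 0.58 FPKM in the deletion libraries, against 10.04, 9.58 and 7.49 FPKM in the control libraries. POX09320 had 27.4, 37.5 and 22.4 FPKM in the deletion libraries, against 243, 256 and 200 FPKM in the control libraries. POX09320 lay at the limit of the rule, 8.002-fold lower. The ID before this pair, POX09318, was 5.81-fold lower, and the ID after it, POX09321, was 1.32-fold lower.

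**Figure D3:**
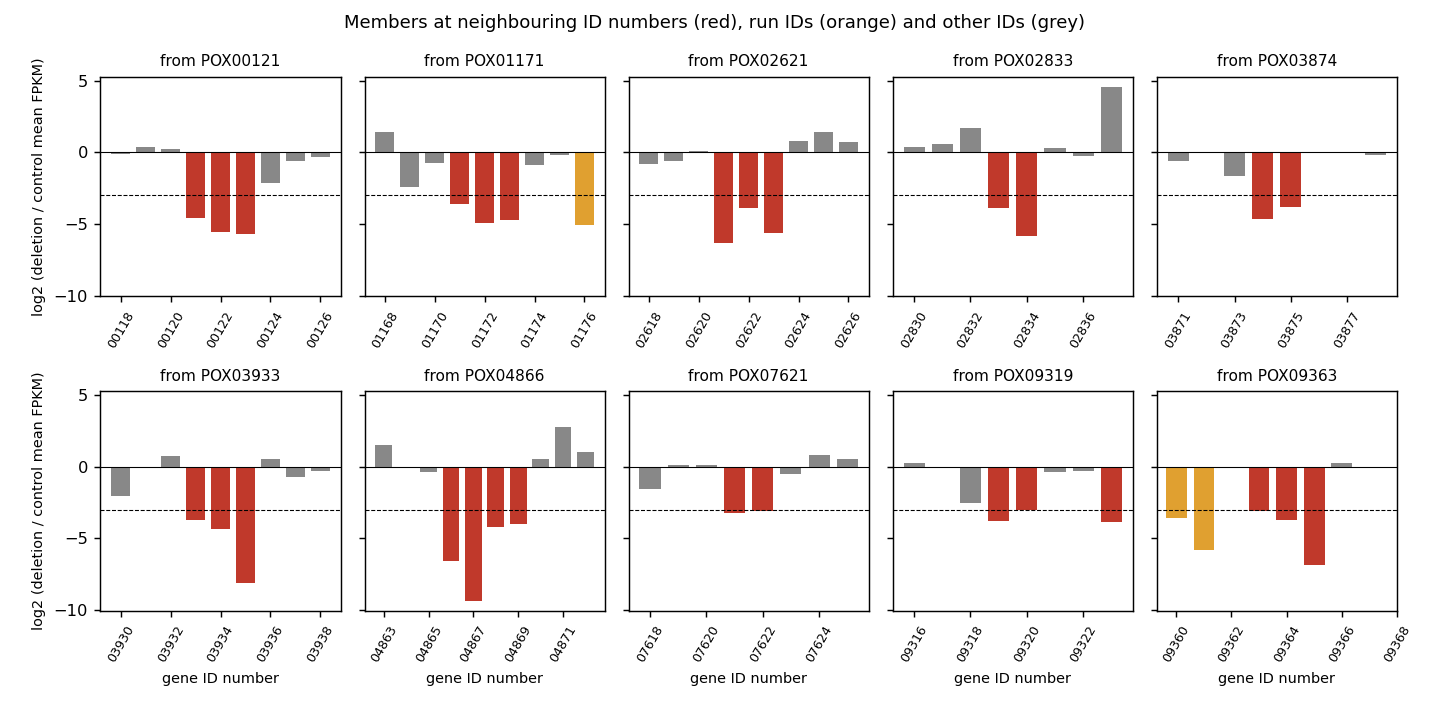
The log2 ratio of the deletion mean to the control mean (vertical, FPKM) by gene ID number (horizontal) for the 10 groups of neighbouring members, with 3 IDs on each side; members are red, IDs of the runs left out are orange and other IDs are grey, IDs with a mean under 1 FPKM over the 6 libraries are not drawn, and the dashed line marks an 8-fold lower level. The members stand out from the flanking IDs in most panels. Some flanking IDs were also lower, among them POX09318 (5.81-fold), POX01169 (5.30-fold) and POX03873 (3.07-fold), while others lay near or above the control level. The difference within a group varies, from 15.8-fold to 650-fold in the group from POX04866.

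IDs directly beside the members were also often lower in the deletion strain. Of 115 tested IDs that neighbour a member and are not members, 32 were at 0.5 times the control or less, which is 27.8%, beside 7.88% of all 8807 tested IDs, and 11 (9.57%) were at least 2 times the control, beside 13.4% of all. Beside members that belong to no group that share was 30.2% of 96 IDs. In all, 51 of the 82 members had a directly neighbouring ID at 0.5 times the control or less, including 24 of the 55 outside the groups, and the other 31 stood alone by this measure. These values come from the contrast that chose the members and were not tested.

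If runs of 4 in place of 5 had been left out, 73 members would have remained, and the 9 lost would have been POX00121 to POX00123, POX04866 to POX04869, POX02069 and POX04565. POX02069 had 43.0, 36.8 and 27.1 FPKM in the deletion libraries, against 313, 372 and 359 FPKM in the control libraries, and its neighbours POX02068, POX02070 and POX02071 were 2.49-fold, 3.04-fold and 2.33-fold lower. POX04565 had 15.3, 12.5 and 15.3 FPKM in the deletion libraries, against 308, 355 and 368 FPKM in the control libraries, and its neighbours POX04564, POX04566 and POX04567 were 6.56-fold, 3.24-fold and 7.20-fold lower. Both genes were named after their values were seen. Over the whole ID range, the share of members among IDs with a control mean of at least 5 FPKM was lowest, at 0.382%, for the 1000 ID numbers from 5000 and highest, at 2.03%, for those from 8000.

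The level left in the deletion strain varied between its libraries, which is a measure the rule did not use. A chi-square test of counting error over the 3 deletion libraries, adjusted over all genes with counts, found 34 of the 82 members uneven, or 41.5%, beside 55.3% of all 8805 genes tested. The test compares these libraries and gains power with counts, and the members had few counts in the deletion strain. Among 40 members with 34.5 to 570 counts over the deletion libraries, 15 were uneven (37.5%), beside 583 of 1900 other genes in that count range (30.7%). Without deletion replicate 3 the number of uneven members was 9, against a share of 19.7% of all genes, so most of the unevenness among members rested on that library.

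Deletion replicate 3 did not deviate in one direction. It was at least 1.5 times the mean of the other deletion libraries in 12 members (14.6%), beside 6.68% of all tested genes, and it was lower by the same factor in 10 members (12.2%), beside 5.87%. Its median ratio to the other libraries over the members was 0.962. The median coefficient of variation over the deletion libraries was 21.8% for the members, beside 10.9% for all tested genes, and over the control libraries it was 7.38% for the members, beside 7.04% for all. The wider spread in the deletion strain stood beside lower counts there, and by the chi-square test above 34 of the 82 members spread beyond counting error in that strain. The median chi-square per degree of freedom over the deletion libraries was 2.53 for the members, beside 4.49 for all tested genes.

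Among members with at least 1 FPKM in the deletion strain, the largest coefficients of variation were those of POX01171, POX00123 and POX00122, given above, and POX07380. POX07380 had 13.3, 12.7 and 31.6 FPKM in the deletion libraries, against 181, 181 and 192 FPKM in the control libraries. Deletion replicate 3 was 2.43 times the mean of the other deletion libraries, and the control libraries lay close together. In POX09025, named after its values were seen, deletion replicate 3 was the low one, with 19.5, 13.8 and 7.60 FPKM in the deletion libraries, against 309, 328 and 313 FPKM in the control libraries.

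The smallest coefficients of variation in the deletion strain were those of POX09323, POX02834, POX03617 and POX00730. POX09323 had 6.74, 6.66 and 6.66 FPKM in the deletion libraries, against 101, 95.8 and 93.9 FPKM in the control libraries, which is 14.5-fold lower. POX03617 had 17.2, 18.9 and 18.1 FPKM in the deletion libraries, against 383, 417 and 388 FPKM in the control libraries, which is 21.9-fold lower. POX00730 had 27.7, 27.9 and 31.6 FPKM in the deletion libraries, against 224, 257 and 237 FPKM in the control libraries, which is 8.23-fold lower. In these genes all 3 deletion libraries kept nearly the same residual level.

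**Figure D4:**
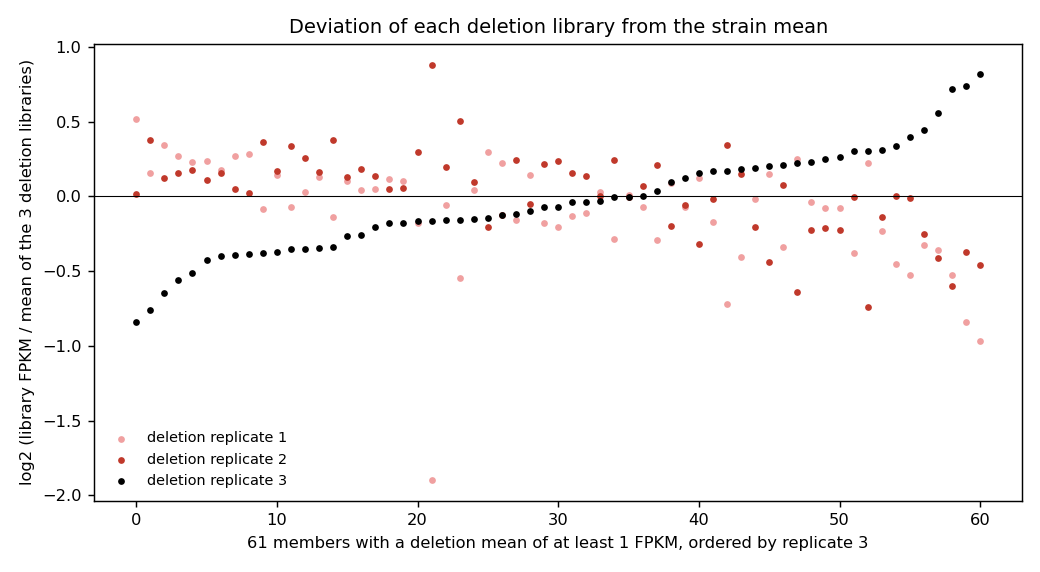
Deviation of each deletion library from the mean of the 3 deletion libraries (log2, vertical) for the 61 members with a deletion mean of at least 1 FPKM, ordered along the horizontal axis by the ratio of replicate 3 to the other libraries. Replicate 3 (black) lies below the strain mean at the left and above it at the right, and its deviations are balanced in direction, with a median ratio of 0.962 over all 82 members; the lowest pink point is POX01171, at 0.28 FPKM in replicate 1.

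The control libraries were also uneven for many members. Over the 3 control libraries 45 of the 82 members were uneven by the same test (54.9%), beside 30.9% of all genes tested. Among 40 members with between the lower and the upper quartile of the members' control counts, 23 were uneven (57.5%), beside 1850 of 4899 other genes in that range (37.8%). Leaving out control replicate 1, 2 or 3 gave 29 (35.4%), 27 (32.9%) and 36 (43.9%) uneven members, beside 15.4%, 17.9% and 23.2% of all genes.

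POX09831 spread most widely, and was named after its values were seen. It had 0.14, 0.13 and 1.84 FPKM in the deletion libraries, against 19.5, 8.20 and 33.3 FPKM in the control libraries, so that the control libraries varied with a coefficient of variation of 61.7%, the highest of all members. Its counts were not whole numbers in any library, with 1.95, 1.63 and 27.2 counts in the deletion libraries, against 300.0, 120.2 and 504 counts in the control libraries, as estimated counts are when reads match more than 1 gene, and its level is uncertain. In all, 6 members (7.32%) held a count that was not whole, beside 11.2% of all IDs. The other 5 were POX01173, POX03075, POX03933, POX06146 and POX08521. POX09831 is 1 of 5 members in the highest-numbered 5% of IDs, which begins at 9343.

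Despite this spread the strains were separate in every member. In all 82 members each deletion library lay below each control library, as was so for 32.2% of all tested genes, and the rule makes such a count likely. In 62 members even the highest deletion library was at least 8-fold below the lowest control library. The rule already set an 8-fold limit on the means, so nothing is read from this count. No share over all tested genes is given for it. Applied without deletion replicate 3, the rule gave 82 genes, of which 75 were members; in that library, which then had no part in the choice, the 82 genes had a median of 6.51% of the control mean, with 71 at or below 12.5%, 79 at or below 25% and 1 above 50%. That one was POX01720, at 77.6%, which is no member. Applied without each of the other 5 libraries in turn, the rule gave 79 to 85 genes, of which 79 to 82 were members, and in the library left out none was above 50%. In each case the libraries of the other strain still had a part in the choice, and libraries of a strain may share a culture. These values describe the libraries and are not read as support for the members.

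The limits of the rule cut through a continuous range. Just inside the ratio limit, POX09320 stood at 12.5%, POX08610 at 12.5% and POX00730 at 12.2% of the control. POX08610 had 1.18, 1.55 and 1.27 FPKM in the deletion libraries, against 9.26, 12.6 and 10.2 FPKM in the control libraries. Just outside it, POX01867 stood at 13.1%, POX07595 at 13.4% and POX03298 at 13.5% of the control. Just inside the level limit, POX01367 had 0.39, 0.27 and 0.51 FPKM in the deletion libraries, against 5.68, 4.53 and 6.63 FPKM in the control libraries, and POX09363 is given above. Just outside it, POX05489 had a mean of 0.333 FPKM without POX09752 and 4.22 FPKM in Ku70, and POX00241 had 0.467 FPKM without POX09752 and 4.03 FPKM in Ku70.

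The length implied by the ratio of count to FPKM had a median of 1042 bases for the members, with quartiles of 672 and 1567 bases, beside a median of 1284 bases, with quartiles of 781 and 1949 bases, for all IDs with a control mean of at least 5 FPKM. The shortest member was POX07538, with an implied length of 143 bases, and it had 16.2, 19.2 and 17.03 FPKM in the deletion libraries, against 325, 324 and 284 FPKM in the control libraries. The longest was POX08039, with an implied length of 8940 bases, and it had 0.83, 0.87 and 0.62 FPKM in the deletion libraries, against 6.24, 6.62 and 6.64 FPKM in the control libraries. The implied lengths of the members thus ran from 143 to 8940 bases. The correlation of log2 length with the log2 size of the difference across the 82 members was -0.145, a description of genes that share all libraries.

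The 34 genes that met the same limits inside the runs had a higher control level than the scattered members. Their median was 4.68 FPKM without POX09752 and 250 FPKM in Ku70, beside 4.50 FPKM without POX09752 and 83.0 FPKM in Ku70 for the 82 members. The 108 genes outside runs that were 4- to 8-fold lower, with a control mean of at least 5 FPKM, had a median of 10.2 FPKM without POX09752 and 53.0 FPKM in Ku70. These medians describe groups cut from the same contrast, and their differences were not tested.

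The rule for naming genes covered 44 of the members. The other 38 had deletion means of 0.270 to 35.6 FPKM with a median of 4.38, and control means of 5.68 to 640 FPKM with a median of 58.4. They were 8.90-fold to 52.1-fold lower, with a median of 13.2-fold. At the upper end POX03104 had 35.5, 36.7 and 31.0 FPKM in the deletion libraries, against 624, 651 and 646 FPKM in the control libraries. At the strongest relative difference POX07751 had 1.51, 0.66 and 0.64 FPKM in the deletion libraries, against 44.0, 57.9 and 44.4 FPKM in the control libraries. POX08457, POX00849 and POX03346 were the next, at 41.2-fold, 33.2-fold and 30.4-fold lower. These genes were named after their values were seen.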

How the data were processed

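RNA-seq libraries from mycelium of both strains were analysed per gene ID. The authors deposited expected counts and FPKM per gene for each library, per the file headers; RSEM 1.2.12, DESeq2, Bowtie2 2.1.0 and BWA 0.7.10-r789 are listed, with no roles, per the submitters' processing notes. The genome build, the annotation, the strandedness and any filter were not stated in the sources at hand. The 82 members were chosen on mean FPKM, as the report states. Members, lists and tests were chosen with earlier results of these data known.

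Expected counts were rounded and fitted with edgeR 4.0.16 (quasi-likelihood test, TMM scaling, R 4.3.3) over 8807 gene IDs averaging at least 1 FPKM, with Benjamini-Hochberg adjustment over all of them. Totals of 13099454 to 14115694 counts set the precision. Evenness within a strain was tested by chi-square on scaled counts. The scripts were tested on simulated data. DESeq2 1.42.0 and limma 3.58.1 (log2 of FPKM plus a pseudocount of 1, 0.1 or 5), other limits, scalings and single libraries left out were alternatives.

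Named genes are the 10 members with the highest control mean, the 8 with the lowest ratio, those within 2 ID numbers of another member, the 4 most and 4 least variable in the deletion strain among those averaging at least 1 FPKM there, those nearest the limits on either side, and the shortest and longest; other names are marked as chosen after their values were seen.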

Additional observations from a re-analysis of the deposited data

How the results depend on the processing

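With a filter of at least 5 FPKM, 73 members were tested and called lower, against 82; the 9 others did not pass it, among them the named POX01367, POX02833, POX08039, POX09319, POX09363 and POX09364. The 45 genes followed here are the 44 members named by rule and the deleted POX09752, without the named genes just outside the limits. Under the alternatives in which they were tested, these genes gave 759 values, all lower in the deletion strain and called. The rule chose the members on this contrast, so this says nothing of how stable they are. The median log2 fold change of the members, -3.89, was -3.96 with a filter of at least 5 FPKM, -3.49, -3.82 and -2.92 with limma at pseudocounts of 1, 0.1 and 5, and -4.00 to -3.83 with single libraries left out. The rule gave 144 genes at a ratio of at most 0.2 and 190 at 0.25, against 82. The number of members uneven among the deletion libraries was 9 to 31 with a deletion library left out, against 34, and the 9 came without replicate 3. Uneven members among the control libraries numbered 27 to 36 with a control library left out, against 45, and 29 and 27 came without replicates 1 and 2. The cause of these shifts was not tested. With the replicate letter as a block, 5283 genes were called and 2668 were called lower, and the members' median was -3.89. The deviations of same-letter libraries had correlations of -0.0173, 0.156 and 0.075, beside -0.129 to 0.0632 for libraries of different letters. The letters were not taken to pair the samples, and these values do not settle whether they do. Low counts in the deletion strain limit how precisely the strongest differences are known.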
